A study of Solenopsis invicta with 52 samples.

Results

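In the fire ant Solenopsis invicta, 50 genes were read at a very low level in SB/SB workers and at a higher level in SB/Sb workers, in brain or in gaster and outside a stretch of consecutive gene rows that was left out. These genes, of 16314 gene identifiers, were chosen by their own values in these libraries. The values were CPM, a gene's counts per 1000000 gene counts of its library, on unstranded counts in brain and reverse-strand counts in gaster. A gene was kept where, in brain or in gaster, each of the 3 SB/SB groups had a mean under 1 CPM, and the SB/Sb group, called pBL, had a mean of 0.5 CPM or more. That mean also had to be at least 3 times the highest SB/SB group mean, with at least 5 pBL libraries above that highest mean. The thresholds were met in both tissues by 8 genes, in brain only by 21 and in gaster only by 21. Inside that stretch, 22 more genes met the same thresholds.

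The study compared single workers of the 2 genotypes and of 2 colony forms by RNA sequencing of brain and gaster, the rear part of the abdomen. All workers had been moved as dark pupae into host colonies of 250 marked workers and were taken 16 days later, at 14 to 16 days of adult age and 0.6 to 0.9 mg. In mBB, SB/SB workers from monogyne colonies, which have a single queen, lived with monogyne hosts and their SB/SB queen. In mpBB, SB/SB workers likewise from monogyne colonies lived with polygyne hosts, which have several queens, here SB/Sb. The group pBB held SB/SB workers, and pBL held SB/Sb workers, both of polygyne origin and in polygyne hosts. No group of SB/Sb workers of monogyne origin or host was among the 52 libraries, so pBL differed from pBB by genotype, from mpBB by genotype and colony of origin, and from mBB by genotype, origin and host. There were 7 brains and 6 gasters a group, from 32 workers, of which 20 gave both tissues. A stock colony served once per treatment as donor or recipient, and p-values here measure the spread between single workers.

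SB and Sb are alternative forms of a supergene, a block of many genes on the fire ant's social chromosome that is inherited as a unit because inversions keep the forms from recombining. The Sb form occurs in polygyne colonies, where it is linked to the acceptance of several queens, and workers that carry it are as a rule heterozygous. The files used here give no map position for the 50 genes. Their identifiers are not paired with gene names or functions in the sources used here, so the genes are described by identifier and level, and the tissue could not be checked against named markers. Near-identical gene copies can share reads, and in brain, where strand was not kept, reads of overlapping opposite genes cannot be told apart.

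Gene counts summed to totals at which 1 CPM stood for 14.5 to 70.0 counts in brain and 30.01 to 77.3 counts in gaster. The kits differed between the tissues, and levels are compared within a tissue. The brain library pBL replicate 2 held 13828 genes with 10 or more counts, above the 10741 to 12744 of the other brains. It was 1 of 5 libraries with a low rank correlation to the rest of their tissue, beside brain mBB 4, pBL 4 and pBL 6 and gaster mBB 1. Gaster pBB 1 had the lowest gene count total of its tissue.

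**Figure D1:**
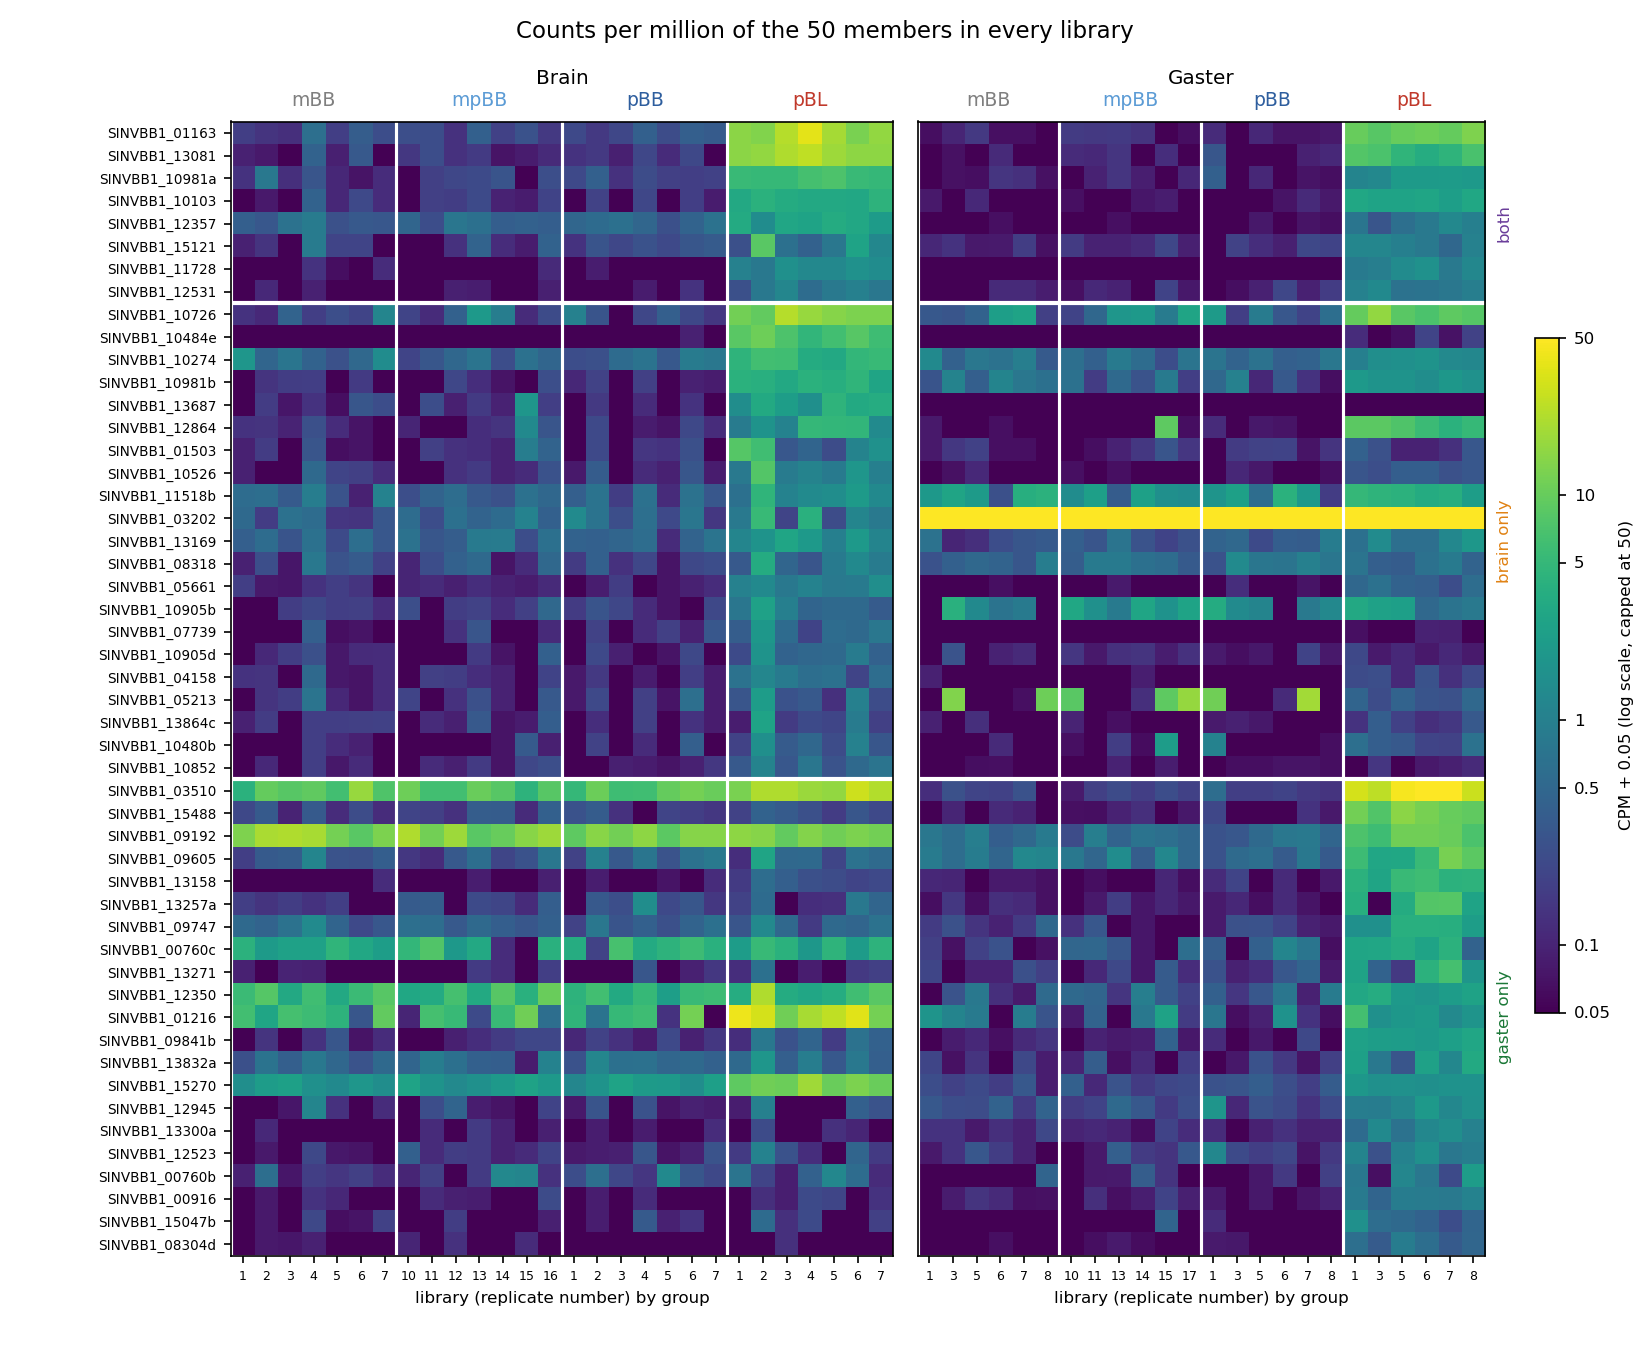
Colour gives CPM plus 0.05 on a log scale, capped at 50, for each of the 50 genes (rows) in each of the 28 brain and 24 gaster libraries (columns, by group and replicate number). The 8 genes at the top met the rule in both tissues, the 21 in the middle in brain only and the 21 at the bottom in gaster only; single SB/SB libraries such as mpBB 15 stand out in a few rows.

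The 8 genes that met the rule in both tissues included the clearest contrasts. In brain, SINVBB1_01163 ranged from 0.0762 to 0.570 CPM (median 0.199) over the 21 SB/SB libraries and from 12.3 to 37.5 CPM (median 16.2) over the 7 pBL libraries. In gaster the same gene ranged from 0 to 0.117 CPM (median 0.0261) in 18 SB/SB libraries and from 8.34 to 13.2 CPM (median 10.0) in 6 pBL libraries. Every pBL library lay above every SB/SB library in both tissues. In whole brains and gasters, fewer cells of a type and less RNA per cell cannot be told apart.

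SINVBB1_13081 gave 18.3 CPM ± 4.09 (SD, n = 7) in pBL brains and no more than 0.395 CPM in any SB/SB brain. Its pBL gasters held 5.72 CPM ± 1.74 (SD, n = 6), and the highest SB/SB gaster held 0.267 CPM. SINVBB1_10981a lay at 4.91 to 7.21 CPM (median 5.34) in pBL brains and at 0 to 0.736 CPM (median 0.135) in SB/SB brains. In gaster it lay at 1.07 to 2.17 CPM (median 2.08) in pBL and at 0 to 0.367 CPM (median 0.0203) in SB/SB. Both genes were thus separated without overlap in both tissues.

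SINVBB1_11728 had no count in any of the 18 SB/SB gasters. The pBL gasters held 0.759 to 1.57 CPM (median 1.03). Their mean of 1.09 CPM was at least 395-fold above the 3 counts that a total of 0 over all SB/SB gasters allows. It was at least 119-fold above the same limit over the pBB gasters alone. These limits cover counting error only. Its brain values were 0.739 to 1.58 CPM (median 1.21) in pBL and 0 to 0.0877 CPM (median 0) in SB/SB, again with no overlap.

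SINVBB1_15121 was the only 1 of the 8 with overlap. Its pBL brains ranged from 0.219 to 8.44 CPM (median 0.725), and 7 SB/SB brains reached or passed the lowest of them, up to 0.833 CPM in mBB 4. In gaster, where pBL held 0.451 to 1.14 CPM (median 0.964) and SB/SB 0 to 0.173 CPM (median 0.0619), the groups did not overlap. SINVBB1_10103, SINVBB1_12357 and SINVBB1_12531 had pBL means between 0.721 and 3.50 CPM in both tissues, with no overlap.

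Among the 29 genes that met the rule in brain, the pBL mean ran from 0.530 to 19.6 CPM (median 1.76), and its ratio to the highest SB/SB group mean had a median of 8.37. In 15 of the 29 no SB/SB brain reached the lowest pBL brain, against 0.251% of all identifiers, but the rule used these values and nothing is read from that difference. In the other 14 at least 1 SB/SB brain did, and in 5 an SB/SB brain lay above the pBL median. Among the 29 that met it in gaster, the pBL mean ran from 0.504 to 41.02 CPM (median 2.41) and the ratio had a median of 14.5. In 20 of these no SB/SB gaster reached the lowest pBL gaster (0.368% of all identifiers), in 9 at least 1 did, and in 3 an SB/SB gaster lay above the pBL median. Just inside the thresholds in brain, the lowest pBL means were 0.530 and 0.557 CPM, the lowest ratios 3.19 and 3.25 and the highest SB/SB group means 0.776 and 0.542 CPM. The genes just outside them by that threshold alone had pBL means of 0.481 CPM, ratios of 2.99 and 2.97, and SB/SB means of 1.05 and 1.28 CPM. In gaster the values just inside were 0.504 and 0.596 CPM, 3.001 and 3.08, and 0.828 and 0.784 CPM, and those just outside were 0.435 and 0.422 CPM, 2.95 and 2.88, and 1.34 and 1.51 CPM. In the tissue or tissues in which they met the rule, 27 of the 50 genes thus had no SB/SB library at or above the lowest pBL library, and 23 had at least 1. That is no statement of absence from SB/SB workers: among the 27, SINVBB1_10274 was read at a low level in every SB/SB brain, and SINVBB1_03510 and SINVBB1_09192, which met the rule in gaster, were read in every SB/SB brain.

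By edgeR's quasi-likelihood test of pBL against pBB, 22 of the 29 brain genes passed the filter on low counts and 19 were called higher (0.458% of 12006 genes tested). In gaster 28 of 29 passed and 21 were called (0.501% of 11574). The rule used both contrasts, so these counts describe the choice.

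Among genes that met the rule in brain only, SINVBB1_10484e was the most one-sided. It had 1 count in all 21 SB/SB brains together, in pBB 6, and 4.65 to 10.7 CPM (median 7.23) in the 7 pBL brains. Its SB/SB gasters had no count, and pBL gasters held 0 to 0.154 CPM (median 0.0447), so that the gene was near 0 in gaster. SINVBB1_10726 held 14.4 CPM ± 4.51 (SD, n = 7) in pBL brains, and the highest SB/SB brain, mpBB 13, 2.06 CPM. SINVBB1_10274 lay at 3.18 to 6.07 CPM (median 4.81) in pBL brains and at 0.157 to 1.85 CPM (median 0.458) in SB/SB brains. Its groups did not overlap in brain.

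SINVBB1_13687 was read in brain alone. Its 7 pBL brains held 1.43 to 4.43 CPM (median 3.27), and the SB/SB brains 0 to 1.83 CPM (median 0.0674). Not 1 reverse-strand count of it fell in any of the 24 gasters, which allows up to 0.00207 CPM over all of them, and 9 forward-strand counts did. SINVBB1_13169, at 0.926 to 2.87 CPM (median 1.71) in pBL brains and 0.0663 to 0.826 CPM (median 0.397) in SB/SB brains, had the lowest ratio of the 29, at 3.19.

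Of the genes that met the rule in gaster only, SINVBB1_03510 had the highest level. Its pBL gasters held 25.1 to 59.2 CPM (median 38.5) and its SB/SB gasters 0 to 0.533 CPM (median 0.139). In brain it was present in both genotypes, at 4.09 to 17.1 CPM (median 8.18) in SB/SB and 12.4 to 29.7 CPM (median 22.1) in pBL. The gene was thus almost unread in SB/SB gasters but read in every SB/SB brain.

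SINVBB1_15488 held 7.70 to 15.2 CPM (median 10.7) in pBL gasters against 0 to 0.167 CPM (median 0.0226) in SB/SB gasters. In brain it stayed at or under 0.389 CPM in every library of both genotypes. SINVBB1_09192 had another pattern. Its pBL gasters held 5.77 to 11.2 CPM (median 8.65) and its SB/SB gasters 0.200 to 0.913 CPM (median 0.508), while its brain levels were 9.55 to 15.4 CPM (median 12.8) in pBL and 8.46 to 22.0 CPM (median 14.2) in SB/SB, with the groups overlapping throughout.

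**Figure D2:**
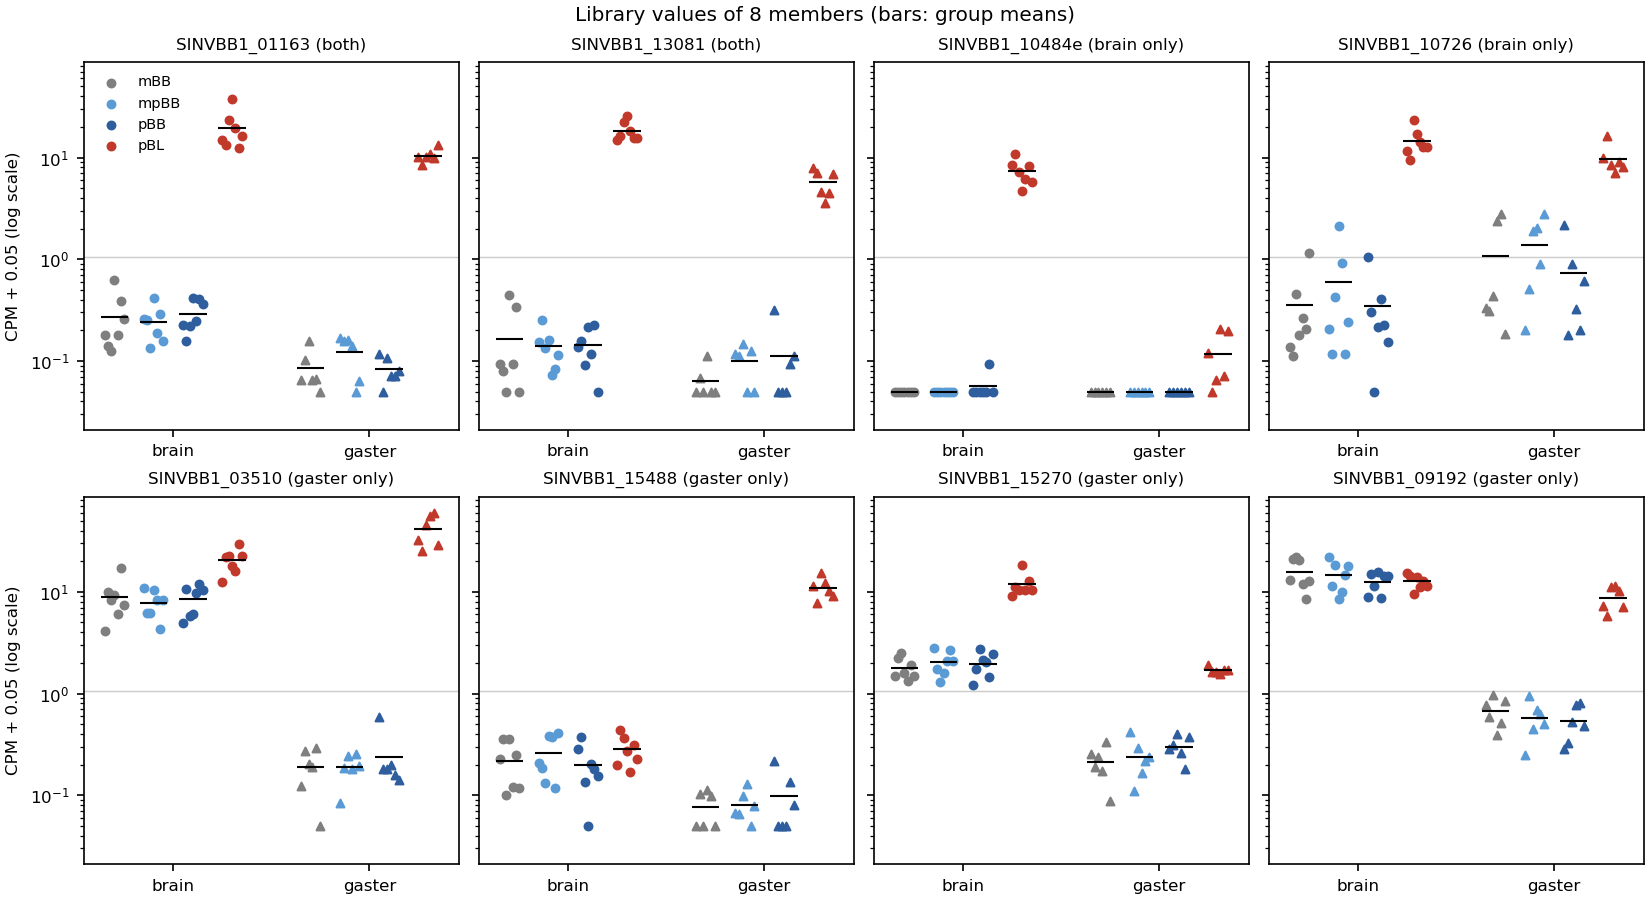
Each point is 1 library (circles brain, triangles gaster) of 8 genes, in CPM plus 0.05 on a log scale, coloured by group, with bars at the group means and a grey line at 1 CPM. SINVBB1_01163 and SINVBB1_13081 separated the genotypes in both tissues, whereas SINVBB1_03510, SINVBB1_15270 and SINVBB1_09192 were read in every SB/SB brain and under 1 CPM in every SB/SB gaster.

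For a gene that met the rule in 1 tissue only, the libraries of the other tissue were not used to choose it, although 5 of the pBL workers gave both tissues. Of the 29 genes chosen by gaster values, 17 passed the filter in brain. For 7 of the 17 the SB/SB brains alone would not have been enough to pass. By edgeR, 8 of the 17 rose in pBL against pBB and none fell, where 0.458% of all genes tested rose and 0.0583% fell; with DESeq2 9 rose. The median log2 difference was 2.59 over the 17 and 0.48 over the 10 of them that met the rule in gaster only, against 0.017 over all genes tested. Of the 29 genes chosen by brain values, 21 passed in gaster. For 12 of the 21 the SB/SB gasters alone would not have been enough. By edgeR 12 of the 21 rose (0.501% of all genes tested) and none fell (0.095%), and with DESeq2 14 rose. Over the 21 the median log2 difference was 3.62, the same with SINVBB1_11728, which had no pBB count, set at its bound. It was 1.23 over the 13 that met the rule in brain only, against −0.0012 over all genes tested. Because a filter passed only with the pBL libraries favours genes that differ, the counts and medians over genes that passed are a description and not support. With the workers split by the individual number in their labels, the calls were 3 in brain and 2 in gaster for numbers under 140, and 8 and 6 for numbers over 140.

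Most of those calls were genes that met the rule in both tissues: 6 of their 7 tested in brain and all 8 in gaster. The values of both tissues chose these genes, so their calls restate the rule. For 6 of the 7 and for all 8, the SB/SB libraries alone would not have been enough to pass the filter. Of the 21 genes chosen by gaster values only, 10 were tested in brain and 2 rose (0.458% of all genes tested). For 1 of the 10 the SB/SB brains alone would not have been enough to pass the filter. SINVBB1_15270 held 9.07 to 18.4 CPM (median 10.4) in pBL brains and 1.15 to 2.73 CPM (median 1.86) in SB/SB brains, without overlap. Its log2 difference between pBL and pBB in brain was 2.63 ± 0.22 (SE; edgeR, adjusted p = 2.40e-09), close to the 2.66 in gaster, where pBL held 1.51 to 1.87 CPM. SINVBB1_03510 rose in brain by 1.30 ± 0.26 (SE; edgeR, adjusted p = 0.00668) on the log2 scale, beside 7.88 in gaster, and 1 SB/SB brain lay above the lowest pBL brain. That call was lost without the 4 low-correlation brains (log2 1.16, edgeR adjusted p = 0.137) and in 3 other of 26 alternative fits. Over the 26 fits the log2 difference was 1.16 to 1.46. The edgeR adjusted p ran from 0.000774, with the replicate number as a block, to 1.00, and the DESeq2 adjusted p was 9.70e-05. The difference between the tissues was not tested, because the kits differ.

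The other genes chosen by gaster values only were not called in brain. In brain, 12 of the 21 lay under 0.5 CPM in all 4 groups, and 6 reached 1 CPM or more in an SB/SB group. SINVBB1_09192 differed by 0.05 ± 0.21 (SE; edgeR, adjusted p = 1.00) on the log2 scale in brain, and SINVBB1_00760c by −0.14 ± 0.62 (SE; edgeR, adjusted p = 1.00). SINVBB1_00760c had been chosen by pBL gasters of 0.388 to 4.14 CPM (median 2.92) against SB/SB gasters of 0 to 1.10 CPM (median 0.187), where 5 SB/SB gasters reached the lowest pBL one. SINVBB1_01216 lay at 11.1 to 41.4 CPM (median 25.6) in pBL brains and 0 to 11.7 CPM (median 5.00) in SB/SB brains. Only 1 SB/SB brain reached the lowest pBL brain, but the gene did not pass the test at 2.75 ± 0.85 (SE; edgeR, adjusted p = 0.369).

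**Figure D3:**
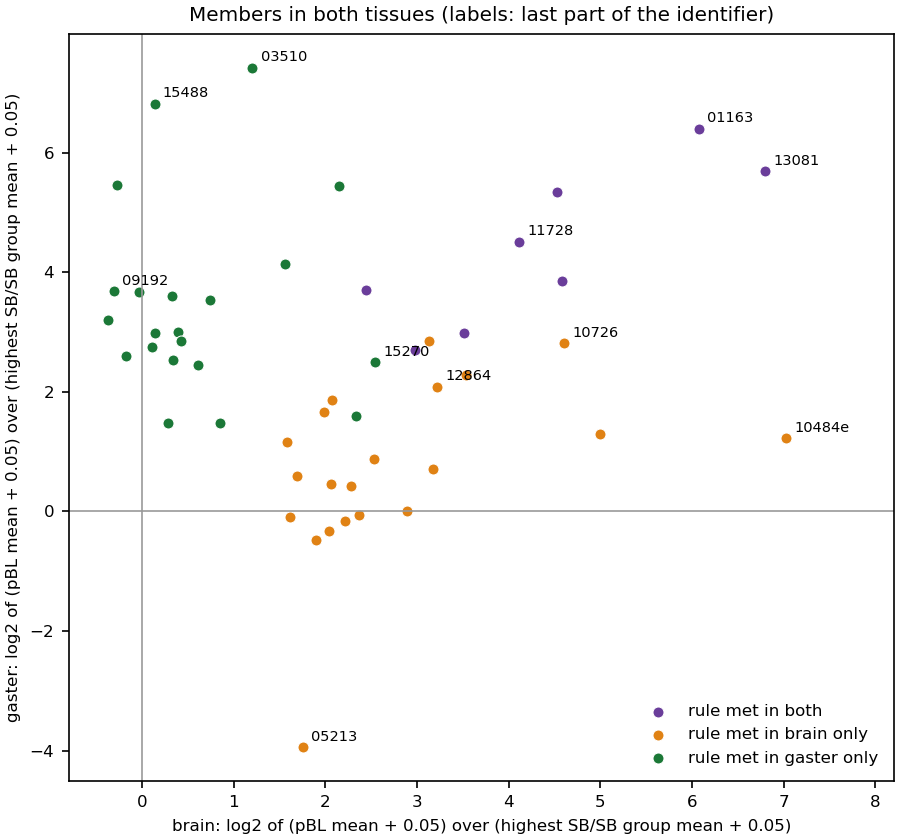
Each point is 1 of the 50 genes, with the log2 ratio of the pBL mean to the highest SB/SB group mean (0.05 CPM added to both) in brain on the x axis and in gaster on the y axis, coloured by the tissue in which the rule was met. Genes of the both class lie to the upper right, and SINVBB1_05213 alone lies far below 0 in gaster.

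Of the 21 genes chosen by brain values only, 13 were tested in gaster and 4 rose (0.501% of all genes tested). For 4 of the 13 the SB/SB gasters alone would not have been enough to pass the filter. SINVBB1_05661 held 0.205 to 0.604 CPM (median 0.417) in pBL gasters and at most 0.0720 CPM in SB/SB gasters, a log2 difference from pBB of 4.40 ± 0.71 (SE; edgeR, adjusted p = 0.000973). SINVBB1_10526 held 0.212 to 0.340 CPM (median 0.266) against at most 0.0619 CPM, a difference of 3.62 ± 0.70 (SE; edgeR, adjusted p = 0.00722). Neither overlapped, and both lay under the 0.5 CPM of the rule in gaster. Both passed the gaster filter through pBL alone, so their calls are a description and not support. The call of SINVBB1_10526 was lost with the replicate number as a block (edgeR adjusted p = 0.0603). Over all alternatives, the edgeR and DESeq2 adjusted p ran from 0.00104 to 0.397.

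SINVBB1_10726 held 6.98 to 16.2 CPM (median 8.71) in pBL gasters, above every SB/SB gaster, which lay at 0.130 to 2.76 CPM (median 0.511). It rose by 3.86 ± 0.81 (SE; edgeR, adjusted p = 0.0182) on the log2 scale and missed the gaster rule because the mpBB mean, 1.34 CPM, passed 1 CPM. Its call was lost without pBB 6, pBB 7 or pBB 8, with log2 differences of 3.65 to 3.83 and edgeR adjusted p of 0.0520 to 0.0574. Over all alternatives, the edgeR and DESeq2 adjusted p ran from 1.19e-05 to 0.343. SINVBB1_12864 rose by 8.51 ± 1.79 (SE; edgeR, adjusted p = 0.0182), from 5 counts over the pBB gasters to 4.12 to 8.78 CPM (median 6.41) in pBL. Unlike SINVBB1_10726, SINVBB1_12864 passed the gaster filter through pBL alone, so its call is a description and not support. Its call was lost without any 1 of pBB 3, 5, 6, 7 and 8, with log2 differences of 8.22 to 8.82 and edgeR adjusted p of 0.0529 to 0.0625. Over all alternatives, the edgeR and DESeq2 adjusted p ran from 2.23e-06 to 0.343.

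Some brain genes were read in every gaster of both genotypes, with no called difference. SINVBB1_03202 had group means of 196 to 393 CPM in gaster, with a log2 difference of −0.11 ± 0.39 (SE; edgeR, adjusted p = 1.00) between pBL and pBB, and only 0.157 to 5.21 CPM (median 0.768) in pBL brains. In brain 17 SB/SB libraries reached its lowest pBL value, and 2 pBL brains, pBL 2 and pBL 4, held 5.21 and 3.91 CPM against at most 1.11 CPM in the other 5. SINVBB1_08318 lay at 0.324 to 0.821 CPM (median 0.503) in pBL gasters and 0.233 to 1.30 CPM (median 0.558) in SB/SB gasters, with full overlap (log2 difference −0.56 ± 0.37, SE; edgeR, adjusted p = 1.00).

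SINVBB1_05213 showed a worker-by-worker pattern in gaster. In 7 of 18 SB/SB gasters, spread over the 3 SB/SB groups, it held 8.40 to 19.3 CPM, and in the other 11 no more than 0.0776 CPM. All 6 pBL gasters lay in the gap between, at 0.196 to 0.469 CPM (median 0.324). The genotype difference in gaster did not pass the test (log2 −3.94 ± 1.96, SE; edgeR, adjusted p = 0.976), and with the replicate number as a block it was 0.15 (edgeR, adjusted p = 0.988). The gene had entered by its brain values, of 0.0805 to 2.26 CPM (median 0.256) in pBL, where pBL 2 was the highest.

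Workers that gave a single tissue are the ones not used at all in choosing a gene from the other tissue alone. Genes of the both class were chosen with these workers too, so their places below partly restate the rule. The brains of pBL 2 and pBL 4 were above all 6 SB/SB brains of such workers for 12 of the 29 gaster-chosen genes, where 2.1% of all identifiers were. The 12 were 7 of the 8 genes of the both class, all but SINVBB1_15121, and 5 of the 21 others, SINVBB1_03510, SINVBB1_01216, SINVBB1_15270, SINVBB1_13158 and SINVBB1_09841b. Both of these pBL brains are among the low-correlation libraries. The gaster of pBL 8 was above all 3 SB/SB gasters of such workers for 22 of the 29 brain-chosen genes, where 25.3% of all identifiers were. The 22 were all 8 genes of the both class and 14 of the 21 chosen by brain values only. With 1 pBL gaster no test was possible there. By edgeR on the 2 pBL and 2 pBB brains of such workers, none of the 21 gaster-chosen genes tested and none of all 12711 genes tested was called. At an unadjusted p under 0.05 there were 11 of the 21, all higher in pBL, and 139 of all genes (1.09%). The 2 pBL brains alone could carry a gene past this filter, so these counts are a description and not support. SINVBB1_13081 gave a log2 difference of 7.19 in that fit (edgeR, adjusted p = 0.158).

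Single libraries carried part of the list. Among the 29 brain-chosen genes pBL 2 was the highest pBL library for 15, while it was the highest for 24.4% of the genes tested in brain. It was the highest for 4 of the 15 genes without overlap and for 11 of the 14 with overlap. Without it, 20 of the 29 still met the rule in brain, and 41 of the 50 stayed in the list. The 9 that dropped out included SINVBB1_03202, SINVBB1_05213 and SINVBB1_08318. On the SB/SB side, mBB 4 was the highest SB/SB brain for 11 of the 29 (19.3% of genes tested) and reached the lowest pBL brain for 10.

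**Figure D4:**
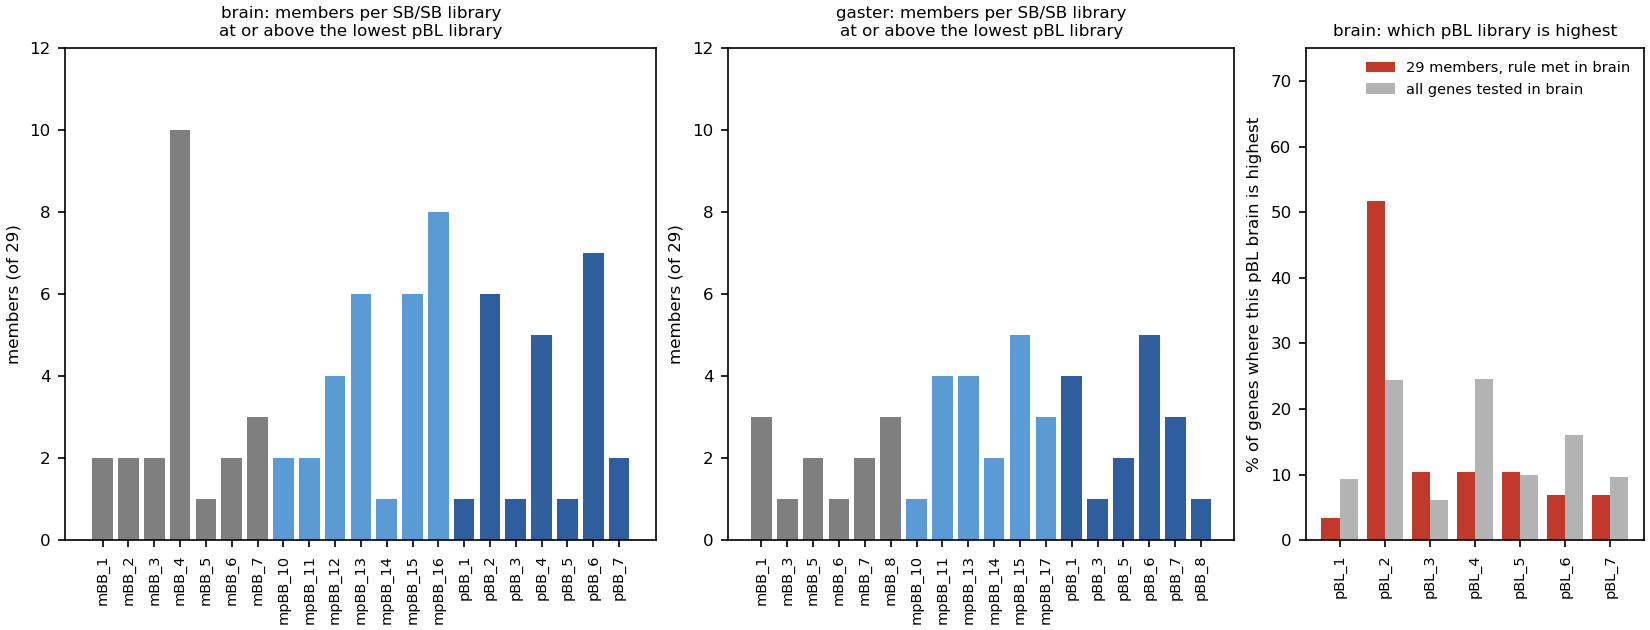
The left and middle panels count, for each SB/SB library, the genes (of the 29 that met the rule in that tissue) at or above the lowest pBL library. The right panel gives, for each pBL brain, the percentage of those 29 genes (red) and of all genes tested (grey) for which it is the highest pBL brain; pBL 2 stands at 15 of 29 against 24.4%.

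The SB/SB worker mpBB 15 held a few of the genes at the levels of pBL. Its gaster held 9.06 CPM of SINVBB1_12864, above all 6 pBL gasters, while the other 17 SB/SB gasters held at most 0.0667 CPM. Its brain held 1.29 CPM of the same gene, within the pBL range of 0.841 to 4.99 CPM, and the other SB/SB brains at most 0.256 CPM. Its brain also held 1.83 CPM of SINVBB1_13687, within the pBL range, where the other SB/SB brains held at most 0.269 CPM. Counted over the whole list mpBB 15 did not stand apart. Its brain reached the lowest pBL brain for 6 of 29 genes, while the brain of mBB 4 did so for 10, that of mpBB 16 for 8 and that of pBB 6 for 7. Its gaster reached the lowest pBL gaster for 5 of 29, as did that of pBB 6, and for SINVBB1_13257a and SINVBB1_00760b, 2 of these 5, the lowest pBL value was 0 and 0.0163 CPM. For SINVBB1_01163 and SINVBB1_13081 it lay with the other SB/SB workers in both tissues. SINVBB1_01216, at 2.63 CPM in its gaster and 11.1 CPM in its brain, was in both near or above the lowest pBL values of 1.23 and 11.1 CPM. Without mpBB 15 in either tissue 51 genes met the rule, 49 of them in the list.

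Gaster pBB 1 was the second such library. It held 1.80 CPM of SINVBB1_12945 where the other SB/SB gasters held at most 0.478 CPM and pBL 0.865 to 2.01 CPM (median 1.16). It held 1.17 CPM of SINVBB1_12523 where the others held at most 0.351 CPM and pBL 0.228 to 1.56 CPM (median 0.954). All 50 genes met the rule without it.

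In the gasters of single SB/Sb workers, a gene was unread or far lower than in the other pBL gasters. SINVBB1_13257a had no count in the gaster of pBL 3, while the other 5 pBL gasters held 2.73 to 8.04 CPM and the SB/SB gasters 0 to 0.128 CPM. SINVBB1_00760c, at 2.69 to 4.14 CPM in 5 pBL gasters, was at 0.388 CPM in pBL 8. Among the SB/Sb workers, pBL 1 was the highest in both tissues for SINVBB1_01216, at 41.4 CPM in brain and 6.31 CPM in gaster, where the other pBL gasters held 1.23 to 2.08 CPM. Requiring every pBL library above the highest SB/SB group mean left 41 genes.

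No gene of the list was called for colony of origin or host. The rule kept every SB/SB group mean under 1 CPM in the tissue that chose a gene, so the absence of calls there is partly set by the choice. Among the SB/SB groups, edgeR and DESeq2 called none of the 32 genes tested in brain and none of the 41 tested in gaster, for host (mpBB against mBB), origin (pBB against mpBB) or social form (pBB against mBB). Of all genes tested 0% were called in these comparisons, other than 0.0605% for social form in gaster. At an unadjusted p under 0.05 the brain counts were 3 for host (2.27% of genes tested), 2 for origin (1.57%) and 0 for social form (4.14%). In gaster they were 3 for host (4.58%), 2 for origin (2.72%) and 4 for social form (13%). The smallest edgeR p-values in brain and gaster were those of SINVBB1_13687 for origin (log2 −3.21 ± 0.96, SE; adjusted p = 1.00) and SINVBB1_12864 for host (log2 7.27 ± 1.82, SE; adjusted p = 1.00). In both, mpBB 15 was the highest SB/SB library.

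The genes were not spread evenly over the rows of the files, whose order the sources used here do not explain. Cut into 4 blocks of equal length, the rows held 3, 6, 4 and 37 of the 50. In the last block 41.0% of identifiers passed the brain filter, against 83.4 to 85.3% in the others. Of the 37 in that block, 12 carried a letter after the number (32.4%), as did 27.2% of all identifiers there.

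In 3 places a pair sat in adjacent rows, namely SINVBB1_11728 with SINVBB1_10981a, SINVBB1_13169 with SINVBB1_13081, and SINVBB1_12523 with SINVBB1_12945. The first pair met the rule in both tissues and the third in gaster only. The 94 other rows directly beside a listed gene held 30 genes tested in brain and 34 in gaster. By edgeR none of these was called between pBL and pBB, and 2 and 8 had an unadjusted p under 0.05, or 425 (3.54%) and 606 (5.24%) of all genes tested. Of the 278 rows up to 3 away, 101 were tested in brain and 112 in gaster. By edgeR, SINVBB1_11188a was called higher in pBL in brain (0.458% of all genes tested), and SINVBB1_11188a, SINVBB1_12946 and SINVBB1_12964 in gaster (0.501%). Only 36.3% of these 278 rows, and 31.9% of the 94 directly beside a listed gene, passed the brain filter, against 73.6% of all identifiers.

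**Figure D5:**
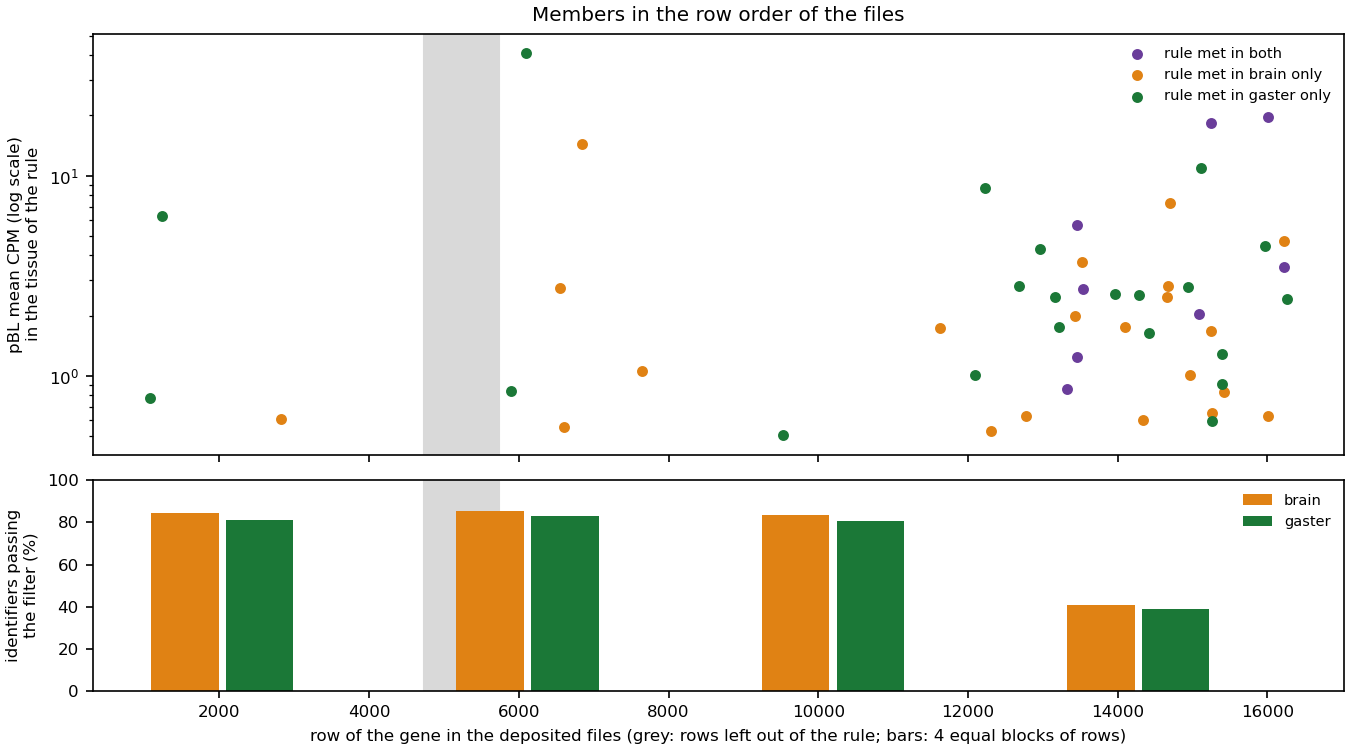
Top, pBL mean CPM (log scale) of each of the 50 genes against its row in the files, coloured by the tissue in which the rule was met, with the rows left out by the rule in grey. Bottom, percentage of identifiers passing the filter in each of 4 equal blocks of rows, at 41.0% in brain in the last block, which holds 37 of the 50 genes.

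Identifiers that share a number and differ by the letter did not all behave alike; what the letters stand for is not given in the sources used here. Of 16 listed genes with a letter, 6 form pairs with a shared number. SINVBB1_10981a and SINVBB1_10981b both met the rule in brain, at pBL means of 5.65 and 3.73 CPM. In gaster SINVBB1_10981b was also read in SB/SB, at 0.0153 to 1.08 CPM (median 0.411), and did not pass the test (log2 2.41 ± 0.64, SE; edgeR, adjusted p = 0.132). The number of SINVBB1_10484e has 6 more letters, whose pBL brain means were all at or under 0.0603 CPM. Over the 13 numbers, 27 further identifiers were not in the list, 6 of them passed the filter in a tissue, and edgeR called none of these 6.

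In gaster the reads of the 29 gaster-chosen genes lay on the strand the kit reads as sense, with a median of 99.4% of strand-assigned pBL counts on the reverse strand and 3 of 29 under 90%. Over all genes tested the median was 98.7%, with 14.9% under 90%. The rule used the reverse-strand counts of the pBL gasters, so a high share among the 29 is partly set by the choice. Of the 21 genes chosen by brain values only, 18 had 20 or more strand-assigned pBL counts. Their median was 99.2%, the lowest was 63.9% and 3 (16.7%) lay under 90%. SINVBB1_15121 was the lowest of the 29, at 76.5%.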

How the data were processed

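The authors deposited a count table per library, with unstranded, forward and reverse counts per gene (columns laid out as STAR writes them); the submitters' processing notes name Trim Galore, STAR and edgeR, with no version, and the sources used here give neither build nor annotation. Per the labels' protocols brains were made with a SMARTer kit and gasters with a stranded KAPA kit. Reverse-strand shares of 49.7 to 50.1% in brain and 96.1 to 97.1% in gaster led to unstranded counts in brain and reverse counts in gaster. Rows that name no gene came to 58.4 to 74.7% of all counts in brain and 38.3 to 71.1% in gaster, and were left out. Genes were tested with edgeR 4.0.16 (quasi-likelihood, TMM, filterByExpr, Benjamini-Hochberg over all genes, adjusted p of 0.05) on the 28 brain or 24 gaster libraries, with DESeq2 1.42.0 as an alternative, and checked on simulated counts. No identifier matched the reference table (0 of 16314). The genes, the rule and the lists were chosen with earlier results of these data known. Named genes are those with the highest pBL means, high SB/SB libraries, calls or opposite signs across tissues, adjacent rows, and 5 chosen after their values were seen (SINVBB1_12864, SINVBB1_13687, SINVBB1_13257a, SINVBB1_05213 and SINVBB1_15121). What a replicate number marks is not given in the labels. Deviations of same-numbered pBL and pBB libraries correlated at 0.143 to 0.497 in all 7 brain pairs. In gaster 1 of 6 pairs lay under 0.1 (0.0928 to 0.494). The main tests did not pair the libraries, and the replicate number served as a block in an alternative fit only.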

Additional observations from a re-analysis of the deposited data

Results flagged for a closer look

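The named genes gave 115 sets of 4 to 10 libraries, in the tissue or tissues in which each met the rule. In 29 of them the highest library was far from the others by Dixon's criterion. Its chance rate of about 1 in 20 assumes normally spread values. Some of these sets hold a single count, so the 29 cannot be set against that rate. All values below are CPM. Brain pBL 2 was far above the other pBL brains for SINVBB1_10526 (7.78), SINVBB1_08318 (3.50), SINVBB1_05213 (2.26) and SINVBB1_15121 (8.44), and brain pBL 4 for SINVBB1_01163 (37.5). Brain mBB 4 stood above its group for SINVBB1_10526 (0.482), SINVBB1_08318 (0.745), SINVBB1_12864 (0.219), SINVBB1_05213 (0.658) and SINVBB1_15121 (0.833).

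The SB/SB worker mpBB 15 stood above its group for SINVBB1_12864 (1.29) and SINVBB1_13687 (1.83) in brain and for SINVBB1_01216 (2.63) in gaster. Gaster pBB 1 did so for SINVBB1_13081 (0.267), SINVBB1_10981a (0.367), SINVBB1_03510 (0.533), SINVBB1_12945 (1.80) and SINVBB1_12523 (1.17). Gaster pBL 1 stood out for SINVBB1_01216 (6.31), and gaster mBB 6 for SINVBB1_13081 (0.0626).

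For SINVBB1_10726 in brain a single library stood out in each SB/SB group, mBB 7 (1.10), mpBB 13 (2.06) and pBB 1 (1.00). For SINVBB1_10981a in brain these were mBB 2 (0.736) and pBB 2 (0.363), and brain pBB 6 stood out for SINVBB1_05213 (0.574). Libraries holding the only counts of their group were brain pBB 6 for SINVBB1_10484e (0.0441), and mpBB 16 (0.0639) and pBB 2 (0.0363) for SINVBB1_11728.

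Forward-strand counts in gaster, which no comparison used, were above every SB/SB gaster in all 6 pBL gasters for SINVBB1_03510 (mean 1.44 ± 0.31, SD, n = 6) and SINVBB1_15121 (mean 0.274 ± 0.134, SD, n = 6). The SB/SB gasters held at most 0.0333 and 0.0305.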

How the results depend on the processing

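No called difference changed direction. Among the named genes, 4 with no call did so in some fits, and so did SINVBB1_09605, SINVBB1_00760b and SINVBB1_13832a, uncalled in brain. Of the 4, SINVBB1_05213 in gaster turned to 0.15 (log2) with the replicate block. SINVBB1_03202 in gaster lay at −0.27 to 0.17 without each replicate. In brain SINVBB1_00760c lay at −0.36 to 0.047 without each replicate, 0.95 in workers with no gaster and 0.20 for numbers under 140. SINVBB1_09192 lay at −0.030 to 0.099, −0.13 in workers with no gaster, −0.087 for numbers over 140, −0.028 without low-correlation libraries and −0.026 with a covariate for merged runs. Of the gaster-chosen genes 8 were called in brain, and 8 to 10 without each pBL or pBB replicate; all genes called higher numbered 55, and 49 to 61. Of the brain-chosen genes 12 were called in gaster, and 10 to 12; all genes numbered 58, and 50 to 59. For numbers under 140, brain calls were 3 of the list and 12 of all genes, and gaster calls 2 and 17. For numbers over 140, all genes called were 36 in brain and 31 in gaster, with 6 of the list in gaster. Testing only genes past 1 CPM in 6 or more libraries left 6 calls of the list in gaster. With only the brains of workers that gave no gaster, 0 of the list and 0 of all genes were called by edgeR on 2 brains a group. These settings use fewer libraries or genes by construction. DESeq2 called 71 genes in brain and 87 in gaster. With the replicate number as a block, 8 and 9 genes of the list were called, all among the 8 and 12, and 58 of all genes in both tissues. In gaster the block ended the calls of SINVBB1_10526, SINVBB1_11728 (edgeR adjusted p = 0.0732) and SINVBB1_15121 (0.0518). In SB/SB comparisons no alternative called a gene of the list. The list itself held 36 to 51 genes under 9 other forms of the rule, 36 with a pBL mean of 1 CPM or more and 42 at 5 times. Leaving out brain pBL 2, mpBB 15 or gaster pBB 1 alone was chosen after seeing the data. Levels near 0.5 CPM rest on few counts, and what row order, letters and individual numbers mean is not given in the sources used here.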
